A study of Mus musculus with 4 samples.

Results

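Integrins and the proteins that tie them to actin were followed in myeloid cells sorted from mouse skin tumours. The set was given as 38 gene symbols: 18 alpha subunits, 8 beta subunits and 12 cytoplasmic partners. Members with a deposited value of at least 10 in at least 2 of the 4 libraries were kept, which left 36 of the 12463 genes that pass the same filter, out of 23420 in the table. The cells carried CD11b and CD200R1 and came from cutaneous squamous cell carcinomas grown orthotopically, with 2 libraries from EpiKO tumours (K14Cre;CD200fl/fl) and 2 from WT tumours, all on the FVB/N strain. In EpiKO, Cre acts under the keratin 14 promoter, so Cd200 is removed from the epidermal compartment and not from the sorted cells by design. The comparison asks which genes of the infiltrating cells differ when the tumour epithelium lacks CD200. Whether the replicates are separate animals or pools is not given, so the p-values cover the spread between these samples alone, and that spread may be technical.

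An integrin is a pair of 1 alpha and 1 beta chain that spans the membrane and holds extracellular matrix or a counter-receptor on another cell. Inside the cell, talin and kindlin bind the beta tail and switch the receptor on, and vinculin, paxillin and the complex of integrin-linked kinase with parvin join it to actin. Focal adhesion kinase and its relative PYK2 signal from these sites. Macrophages are known for leukocyte integrins of the β2 class, for α4β1 and α5β1, and for podosomes, the ring-shaped adhesions that osteoclasts enlarge to seal off bone.

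The libraries held 15884132 to 21244158 reads in genes. All values below are read counts normalised by library, in which 1 read is worth 0.841 to 1.16. Cd200, the targeted gene, stood at 17.2 and 15.1 in EpiKO and at 92.7 and 59.7 in WT, a log2 fold change of -2.14 that did not pass the test (limma adjusted p = 0.0794). Cd200r1, whose protein is part of the gate, stood at 1101 and 612 in EpiKO and at 318 and 293 in WT. All 9 macrophage and monocyte markers were measured, with summed values of 534468 and 511234 in EpiKO and 463269 and 381261 in WT. Lyz2 was the largest part of each sum, at 325763 and 235159 in EpiKO and at 207009 and 157099 in WT. Of the 9 markers, 3 had a log2 fold change above 0 and 6 below, with a median of -0.16. Keratinocyte markers stood apart in 1 library, with sums of 53.8 and 44.4 in EpiKO and of 3961 and 86.6 in WT. In such bulk samples, fewer cells of a type and less RNA per cell cannot be told apart.

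Promoter windows are shown for the collagen receptor gene Itga1, which differed most, for Itgav and Itga5, the fibronectin and vitronectin receptor chains with the lowest p among members below WT, and for Itgam, the gene of the sorting marker. Each is the 250 bases before the RefSeq start, 5′ to 3′ on the gene's strand, build GRCm38.p6. Of the 38 symbols, 25 had such a window. Capitals mark GAGGAA, the core bound by the myeloid factor PU.1, and GGGCGG, the core bound by Sp1, on either strand.
Itga1, chr13:115101965-115102214, minus strand: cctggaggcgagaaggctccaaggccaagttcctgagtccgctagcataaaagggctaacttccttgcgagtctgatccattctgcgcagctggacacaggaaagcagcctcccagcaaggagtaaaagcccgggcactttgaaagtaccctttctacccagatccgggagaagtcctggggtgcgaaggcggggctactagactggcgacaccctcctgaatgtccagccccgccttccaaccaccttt
Itgav, chr2:83724147-83724396, plus strand: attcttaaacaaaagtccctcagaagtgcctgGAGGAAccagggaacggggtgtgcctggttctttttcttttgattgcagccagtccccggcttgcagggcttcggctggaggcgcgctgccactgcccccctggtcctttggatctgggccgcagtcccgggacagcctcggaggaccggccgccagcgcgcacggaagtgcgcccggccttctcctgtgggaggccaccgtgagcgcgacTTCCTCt
Itga5, chr15:103366792-103367041, minus strand: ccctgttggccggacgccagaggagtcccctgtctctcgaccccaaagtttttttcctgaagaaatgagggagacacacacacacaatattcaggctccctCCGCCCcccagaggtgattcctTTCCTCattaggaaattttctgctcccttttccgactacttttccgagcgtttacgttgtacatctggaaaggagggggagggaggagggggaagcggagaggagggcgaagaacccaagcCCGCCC
Itgam, chr7:128062390-128062639, plus strand: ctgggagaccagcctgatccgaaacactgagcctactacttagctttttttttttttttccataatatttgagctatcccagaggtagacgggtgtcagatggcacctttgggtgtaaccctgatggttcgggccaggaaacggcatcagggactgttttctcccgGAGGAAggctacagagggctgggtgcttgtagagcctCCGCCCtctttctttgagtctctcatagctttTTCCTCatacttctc
The window of Itgam held 2 matches to GAGGAA, that of Itgav 2, that of Itga5 1 and that of Itga1 0. GGGCGG matched 2 times in Itga5, 1 time in Itgam and 0 times in Itgav and Itga1. TGTGGT, a RUNX core, and TGANTCA, the AP-1 site, matched in none of the 4 windows, and no match overlapped another. Among 32851 windows of the same length, 23.3% held GAGGAA, 32.7% GGGCGG, 14% TGTGGT and 6.75% TGANTCA. These are matches of letters only.

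Of the 36 tested members, 2 were higher in EpiKO, 0 were lower and 34 did not pass the threshold, an adjusted p under 0.05 by limma with Benjamini-Hochberg adjustment over all tested genes. Over all genes, 0.417% were called higher and 0.530% lower, 0.947% in all. The 2 called members are Itga1 and Itgal, both alpha chains. At an unadjusted p under 0.05 by limma, 10 members were higher and 2 lower, while over all genes 1006 were higher and 943 lower at that level. DESeq2 on the recovered reads called 7 members higher and 2 lower, beside 3.73% of all genes higher and 3.12% lower, 6.85% in all. The 7 were Itga1, Itgal, Itga10, Itgb4, Fermt2, Tln2 and Parvg, and the 2 were Itgav and Itga5. The median log2 fold change of the members was 0.27, beside -0.0021 over all tested genes. The groups did not overlap in 21 members, beside 47.1% of all genes. In 16 members both EpiKO libraries lay above both WT libraries, where 23.3% of all genes did, and in 5 they lay below, where 23.8% of all genes did. Since Itga2b passed the filter through its EpiKO libraries alone, counts over the tested members are not free of the filter.

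**Figure D1:**
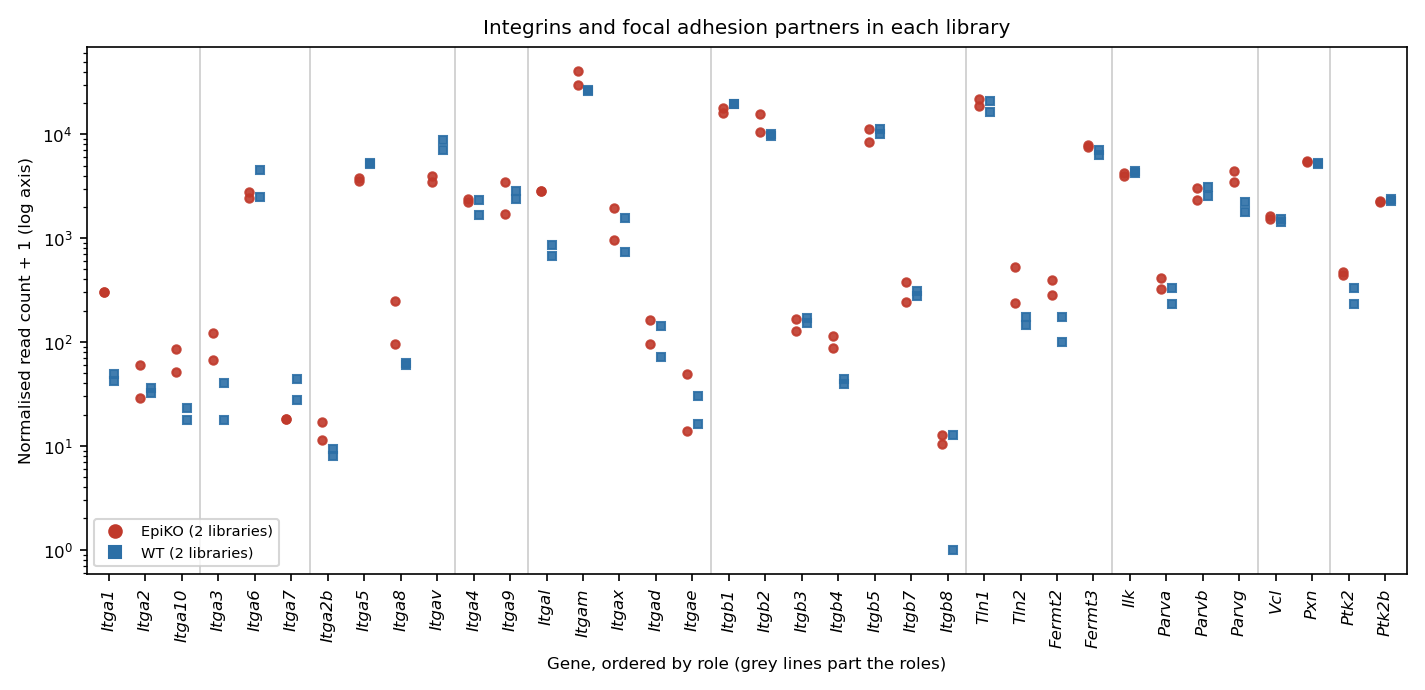
Normalised read count plus 1 on a log axis for the 36 tested members, ordered by role along the horizontal axis. Red circles are the 2 EpiKO libraries and blue squares the 2 WT libraries. Itga1 and Itgal show EpiKO points well above WT points, Itgav shows them below, and Itgb8 has 1 WT library at 0.

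Among the chains that bind collagen, Itga1 rose, while its neighbour Itga2 overlapped between the groups. Itga1 encodes α1, which pairs with β1 as a receptor for collagen, type IV of basement membranes in particular. It had 305 and 301 normalised reads in EpiKO and 48.7 and 41.2 in WT. Both EpiKO libraries were alike and far above both WT libraries, with means of 303 ± 2.25 in EpiKO and 44.9 ± 5.30 in WT (SD, n = 2 each), a fold of 6.74. The log2 fold change was 2.73 (SE 0.206, 95% interval 2.21 to 3.26, limma adjusted p = 0.0329). The call rests on all 4 libraries: without any 1 of them the log2 fold change was 2.61 to 2.85, but the adjusted p by limma was 0.0856 to 0.162. Despite the fold, Itga1 remained a low transcript per length, with 16.3 normalised reads per kilobase of merged exons in EpiKO and 2.42 in WT. This level depends on the division by 18.6 kb of merged exons, all isoforms included. Undivided, its EpiKO mean of 303 was near the 311 of Itgb7, which stood at 112 per kilobase in EpiKO.

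On chromosome 13 of mm10, Itga1 spans 114953096 to 115101964 on the minus strand and Itga2 spans 114833081 to 114932100 on the same strand, with 20995 bases between them. Itga2 encodes α2, the other widespread collagen receptor chain, and had 28.0 and 58.6 normalised reads in EpiKO and 31.3 and 35.3 in WT. For Itga2 the log2 fold change was 0.28 (SE 0.447) with a 95% interval of -0.86 to 1.42, so the groups could not be told apart at this spread. The per-length level of Itga1 over that of Itga2 was 4.17 and 1.97 in EpiKO and 0.597 and 0.447 in WT. The order in WT depends on the division by merged exons, 18.6 kb for Itga1 and 7.13 kb for Itga2. Without that division Itga1 was above Itga2 in all 4 libraries. Itga10, a collagen receptor chain best known from cartilage, had 85.0 and 50.1 normalised reads in EpiKO and 22.0 and 16.8 in WT. Its groups did not overlap, but its log2 fold change of 1.71 (SE 0.404) did not pass, with a limma adjusted p of 0.139, while DESeq2 gave 0.0406. Of its exon bases, 33.5% are shared with a second annotated gene of the same strand.

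Itga11, a collagen receptor chain of fibroblasts, failed the filter. It had 1 and 0 reads in EpiKO and 6 and 4 in WT, a pooled EpiKO over WT ratio of 0.103 (exact binomial 95% interval 0.00238 to 0.726, counting error only). Fibroblast markers, all 8 of which were measured, summed to 18310 and 27356 in EpiKO and to 31582 and 21043 in WT, so the sums overlapped. Col3a1, which had the highest mean of them, was lower in EpiKO, at 8619 and 10633, than in WT, at 17999 and 11540. Col1a1 overlapped, at 3990 and 5757 in EpiKO and at 4770 and 3588 in WT. Pdgfra stood at 723 and 1014 in EpiKO and at 484 and 471 in WT. Pdgfrb stood at 322 and 492 in EpiKO and at 243 and 186 in WT, so both were higher in EpiKO. Of the 8 markers, 6 had a log2 fold change above 0 and 2 below. At an unadjusted p under 0.05 by limma, 2 fibroblast markers were higher and 0 lower, and 0 of the 8 passed the threshold. Endothelial markers summed to 948 and 1160 in EpiKO and to 1679 and 1748 in WT, most of it Eng, which macrophages can carry too. Of the 6 endothelial markers tested, 2 had a log2 fold change above 0 and 4 below. Pecam1 stood at 104 and 117 in EpiKO and at 73.0 and 53.8 in WT, and Cdh5 at 76.4 and 85.1 in EpiKO and at 58.0 and 61.4 in WT, while Kdr stood at 36.6 and 23.6 in EpiKO and at 76.5 and 59.7 in WT. Of 10 smooth muscle and pericyte markers, listed after values had been seen, Myh11 had at most 3 reads in any library. The sum of that list was 1491 and 2153 in EpiKO and 5064 and 7218 in WT, and most of the WT sums was Cspg4 alone. Of the 5 that passed the filter, 2 had a log2 fold change above 0 and 3 below. Cspg4 stood at 691 and 635 in EpiKO and at 3818 and 6398 in WT and was called lower (limma adjusted p = 0.0367), and Acta2 stood at 596 and 1161 in EpiKO and at 901 and 685 in WT. The part of these cells in the collagen receptor values was not tested.

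**Figure D2:**
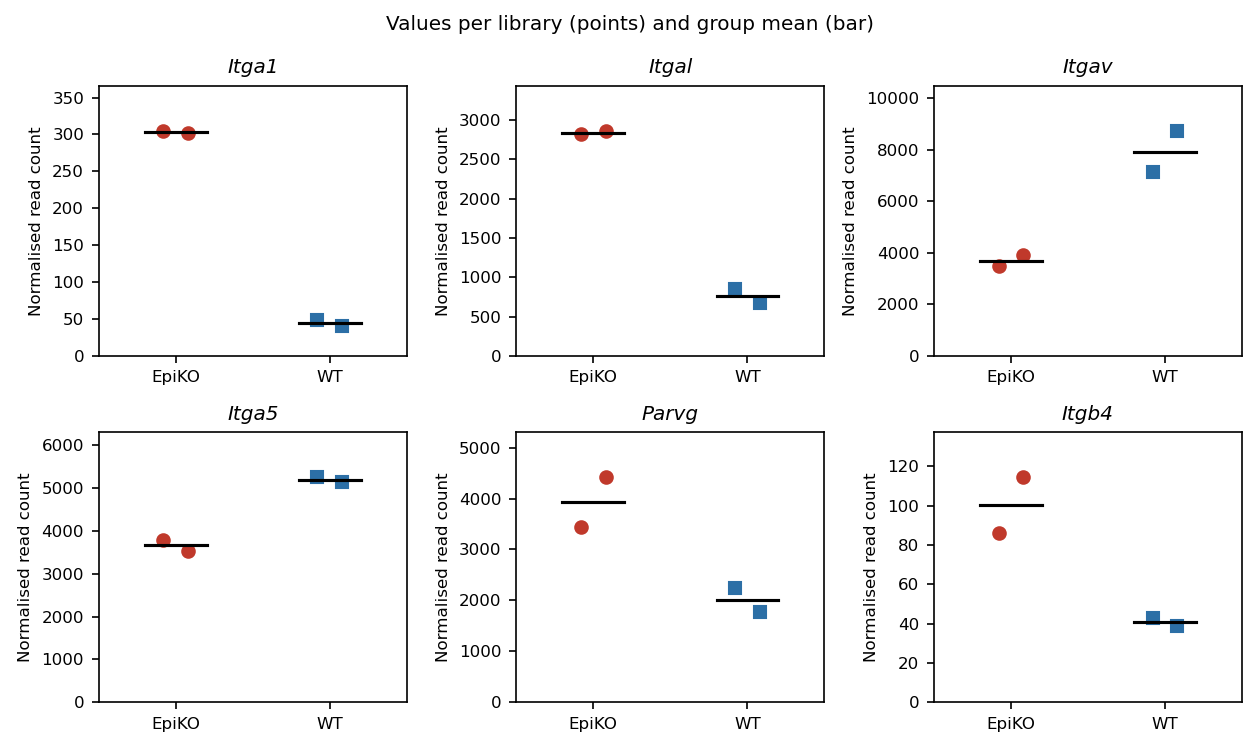
Normalised read count per library on a linear axis that starts at 0, EpiKO left and WT right, for 6 members. Points are single libraries and the black bar is the group mean. The groups are apart in all 6: Itga1, Itgal, Parvg and Itgb4 are higher in EpiKO and Itgav and Itga5 lower, and of these only Itga1 and Itgal passed the threshold.

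Among the leukocyte chains, which carry an inserted ligand-binding domain, Itgal rose and the other 4 did not pass the threshold. Itgal encodes αL, also called CD11a, which with β2 forms LFA-1, the receptor for ICAM proteins. It had 2819 and 2861 normalised reads in EpiKO and 857 and 670 in WT. Every EpiKO library exceeded every WT library, with means of 2840 ± 29.2 in EpiKO and 763 ± 132 in WT (SD, n = 2 each). The log2 fold change was 1.91 (SE 0.148, 95% interval 1.53 to 2.28, limma adjusted p = 0.0334). With 1 library left out in turn, the log2 fold change was 1.73 to 2.08 and the limma adjusted p 0.0840 to 0.162, and limma without its intensity trend gave an adjusted p of 0.0688. Per length, Itgal stood at 432 normalised reads per kilobase in EpiKO and 116 in WT, far above Itga1 in both groups.

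T cells and natural killer cells also carry LFA-1. Of 9 markers found for them, Cd3e, Cd3g, Cd3d, Cd8a and Nkg7 had at most 3 reads in every library. The list summed to 194 and 1024 in EpiKO and to 1917 and 649 in WT, mostly Cd4, at 100 and 893 in EpiKO and at 1755 and 575 in WT. Klrb1c, a natural killer cell marker, stood at 77.5 and 104 in EpiKO and at 143 and 47.1 in WT. The sums overlapped between groups, and the part of these cells in the Itgal values was not tested.

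Itgam encodes αM, the CD11b chain by which the cells were sorted, and was the most abundant member per length. It had 40692 and 30075 normalised reads in EpiKO and 26151 and 26738 in WT, with a log2 fold change of 0.40 (SE 0.185, limma adjusted p = 0.387). As the gate selects for its protein, its level is no independent finding, and 68.7% of its exon bases are shared with a second annotated gene of the same strand. Itgax, the CD11c chain of dendritic cells and some macrophages, had 951 and 1944 normalised reads in EpiKO and 1545 and 731 in WT. Itgad, a neighbouring chain of the same class, had 93.7 and 162 normalised reads in EpiKO and 140 and 71.4 in WT. Both genes were highest in EpiKO replicate 2 and lowest in WT replicate 2. The groups overlapped because WT replicate 1 lay above EpiKO replicate 1 for both genes.

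Itgae encodes αE, which binds E-cadherin, and had 12.9 and 48.2 normalised reads in EpiKO and 29.0 and 15.1 in WT. The order of the 4 neighbours on chromosome 7 of mm10 is Itgal (127296260 to 127335138), Itgam (128062640 to 128118491), Itgax (128129547 to 128150657) and Itgad (128154376 to 128223816), all on the plus strand. Between Itgal and Itgam lie 727501 bases, between Itgam and Itgax 11055, and between Itgax and Itgad 3718. The called gene, Itgal, lies farthest from the others of the 4, and whether position bears on its values was not tested.

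The makeup of the β2 partners was computed from levels per kilobase. Itgal took 4.91% and 6.35% of their summed level in EpiKO and 2.29% and 1.82% in WT, and Itgam 92.6% and 87.2% in EpiKO and 91.5% and 95.2% in WT. With the gated Itgam left out, Itgal took 66.2% and 49.7% in EpiKO and 27.0% and 37.8% in WT. Itgax took 30.5% and 46.2% of that remainder in EpiKO and 66.6% and 56.4% in WT. With 2 libraries a side the smallest exact permutation p is 0.33, so these shares carry no test.

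Of the chains that recognise the RGD motif of matrix proteins, the abundant Itgav and Itga5 had lower values in EpiKO and the scarce Itga8 and Itga2b higher ones, and none passed the threshold. Itgav encodes αV, which pairs with several beta chains to bind vitronectin, osteopontin and latent TGF-beta. It had 3471 and 3922 normalised reads in EpiKO and 7117 and 8724 in WT. Both EpiKO libraries lay far below both WT libraries, with means of 3696 ± 319 in EpiKO and 7921 ± 1137 in WT (SD, n = 2 each), a WT over EpiKO fold of 2.14. Its log2 fold change of -1.09 (SE 0.149, 95% interval -1.47 to -0.72) did not pass by a small margin, with a limma adjusted p of 0.0540. The call depends on the method: edgeR on the recovered reads gave an adjusted p of 0.0561, limma without a filter 0.0463 and DESeq2 on the recovered reads 2.50e-07. In mm10 it spans bases 83724397 to 83806916 of chromosome 2, plus strand, and 5.90% of its exon bases are shared with a gene of the other strand.

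Itga5 encodes α5, the main fibronectin receptor chain, and had 3784 and 3526 normalised reads in EpiKO and 5238 and 5137 in WT. Replicates were close and the groups apart, at 3655 ± 182 in EpiKO and 5187 ± 71.5 in WT (SD, n = 2 each). The log2 fold change was -0.51 (SE 0.108, limma adjusted p = 0.116), and DESeq2 gave an adjusted p of 0.00994. In mm10, Itga5 spans bases 103344286 to 103366763 of chromosome 15, minus strand. In total, αV took 3.05% and 4.08% of the summed per-length level of all alpha chains in EpiKO and 8.06% and 9.60% in WT, and α5 took 7.24% and 8.00% in EpiKO and 12.9% and 12.3% in WT.

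Itga8, a fibronectin and nephronectin receptor chain of mesenchymal cells, had 249 and 95.5 normalised reads in EpiKO and 61.4 and 58.8 in WT. The log2 fold change of Itga8 was 1.34 (SE 0.482, limma adjusted p = 0.282). EpiKO replicate 1 set most of that difference, and without it the log2 fold change was 0.66. Itga2b, the platelet fibrinogen receptor chain, sat near the filter with 15 and 11 reads in EpiKO and 6 and 10 in WT, a pooled EpiKO over WT ratio of 1.68 (exact binomial 95% interval 0.867 to 3.35, counting error only). Of the platelet markers, Gp9, Gp5 and Gp6 had no read in any library. The list summed to 4970 and 5489 in EpiKO and to 4923 and 1990 in WT, almost all of it Pf4, which macrophages also make.

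The chains that bind laminin differed in direction and none passed the threshold. Itga6, the most abundant of them, had 2407 and 2753 normalised reads in EpiKO and 2476 and 4574 in WT, so its lower EpiKO mean came from WT replicate 2. Without that library its log2 fold change was 0.056, against -0.39 with all 4. Itga3, a chain of epithelial basement membrane receptors, had 65.7 and 120 normalised reads in EpiKO and 39.4 and 16.8 in WT, a log2 fold change of 1.74 (SE 0.534, limma adjusted p = 0.219). Itga7, a chain of muscle, had 17.2 and 17.0 normalised reads in EpiKO and 42.9 and 26.9 in WT, with a log2 fold change of -0.95 (SE 0.413, limma adjusted p = 0.363).

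Itga4 and Itga9 form a class of their own and bind VCAM-1, fibronectin splice forms and osteopontin. Itga4 had 2369 and 2203 normalised reads in EpiKO and 1686 and 2325 in WT, and its groups overlapped. Itga9 had 1724 and 3469 normalised reads in EpiKO and 2837 and 2391 in WT. For Itga9 both the highest and the lowest value were EpiKO libraries, and its log2 fold change was -0.091 (SE 0.345).

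**Figure D3:**
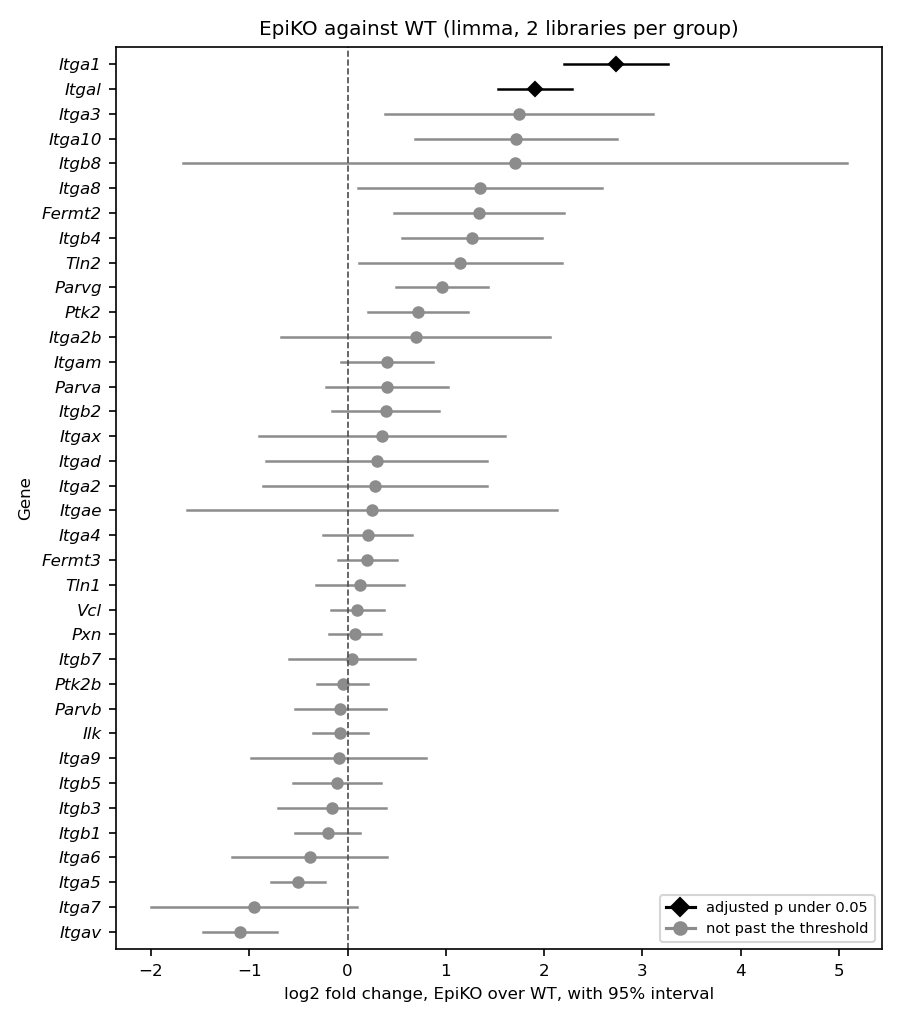
Log2 fold change of EpiKO over WT on the horizontal axis for each tested member, with the 95% interval of the limma fit as a line, sorted from the highest at the top to the lowest at the bottom. Black diamonds mark the 2 members past the threshold, Itga1 at 2.73 and Itgal at 1.91. The interval of Itgb8, from -1.67 to 5.08, is the widest of the 36.

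No beta chain passed the threshold. The difference of the called Itga1 and Itgal from their partner chains, Itgb1 and Itgb2, was not tested. Itgb1, the common partner of most matrix-binding alpha chains, had 18086 and 15919 normalised reads in EpiKO and 19492 and 19548 in WT. Its EpiKO libraries lay just below its WT libraries, with a log2 fold change of -0.20 (SE 0.131, 95% interval -0.54 to 0.13). Itgb2, the partner of the leukocyte chains, had 15659 and 10474 normalised reads in EpiKO and 9946 and 9606 in WT. Its log2 fold change was 0.39 (SE 0.213, limma adjusted p = 0.473), and EpiKO replicate 1 held the high value. The per-length level of Itgb2 over that of Itgb1 was 1.16 and 0.880 in EpiKO and 0.682 and 0.657 in WT.

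Itgb5, which joins αV to bind vitronectin, had 8491 and 11341 normalised reads in EpiKO and 10041 and 11139 in WT. Its log2 fold change was -0.11 (SE 0.176), with a 95% interval of -0.56 to 0.34, while Itgav stood at -1.09, and the difference between both genes was not tested. The per-length level of Itgav over that of Itgb5 was 0.135 and 0.114 in EpiKO and 0.234 and 0.259 in WT. Itgb3, the chain that osteoclasts pair with αV, was scarce by comparison, with 126 and 164 normalised reads in EpiKO and 170 and 151 in WT. Per length, Itgb3 made up 0.312% and 0.391% of the beta chains able to pair with αV in EpiKO and 0.378% and 0.322% in WT, while Itgb5 made up 34.9% and 44.8% in EpiKO and 37.0% and 39.4% in WT. The beta chains that αV can use were thus mostly Itgb1 and Itgb5 in all 4 libraries, and neither differed beyond the threshold.

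Itgb7, which pairs with α4 and αE, had 381 and 240 normalised reads in EpiKO and 277 and 311 in WT, and the groups overlapped. Itgb8, a chain that pairs with αV to activate TGF-beta, stood just inside the filter with 11.8 and 9.45 normalised reads in EpiKO and 11.6 and 0 in WT. Itgb6, the epithelial partner of αV, stood outside it with 0 reads in all 4 libraries, where a count of 0 allows a level of up to 3 reads, or 2.52 to 3.48 normalised reads, per library. Of these low chains, differences below that level were not detectable at this depth.

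Itgb4 encodes the chain that joins α6 in the hemidesmosomes of epithelia. It had 86.1 and 114 normalised reads in EpiKO and 42.9 and 38.7 in WT, so the groups were apart. For Itgb4 the log2 fold change was 1.26 (SE 0.282, limma adjusted p = 0.126), and DESeq2 gave an adjusted p of 0.0471. Keratinocyte markers were high in WT replicate 1 alone. Krt14 stood at 8.61 and 18.9 in EpiKO and at 1907 and 28.6 in WT. A list of 8 markers of simple epithelium was written after values had been seen. It summed to 7153 and 5935 in EpiKO and to 1333 and 635 in WT. Of the 8, 3 passed the filter, Krt8, Krt18 and Cdh1, and they made up most of each sum. In that list Krt8 was at 1999 and 4164 in EpiKO and at 446 and 234 in WT, and Cdh1, which EpiKO replicate 1 led, at 4437 and 685 in EpiKO and at 547 and 361 in WT. Epcam was at 6.46 and 7.56 in EpiKO and at 156 and 7.57 in WT, and Cldn7 had no read in any library. Esrp1 was at 0 and 0 in EpiKO and at 52.2 and 0.841 in WT. Cldn4 was at 3.23 and 0 in EpiKO and at 10.4 and 0 in WT, and Krt19 at 8.61 and 4.73 in EpiKO and at 0 and 1.68 in WT. The part of epithelial RNA in the Itgb4 and Itga3 values was not tested.

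**Figure D4:**
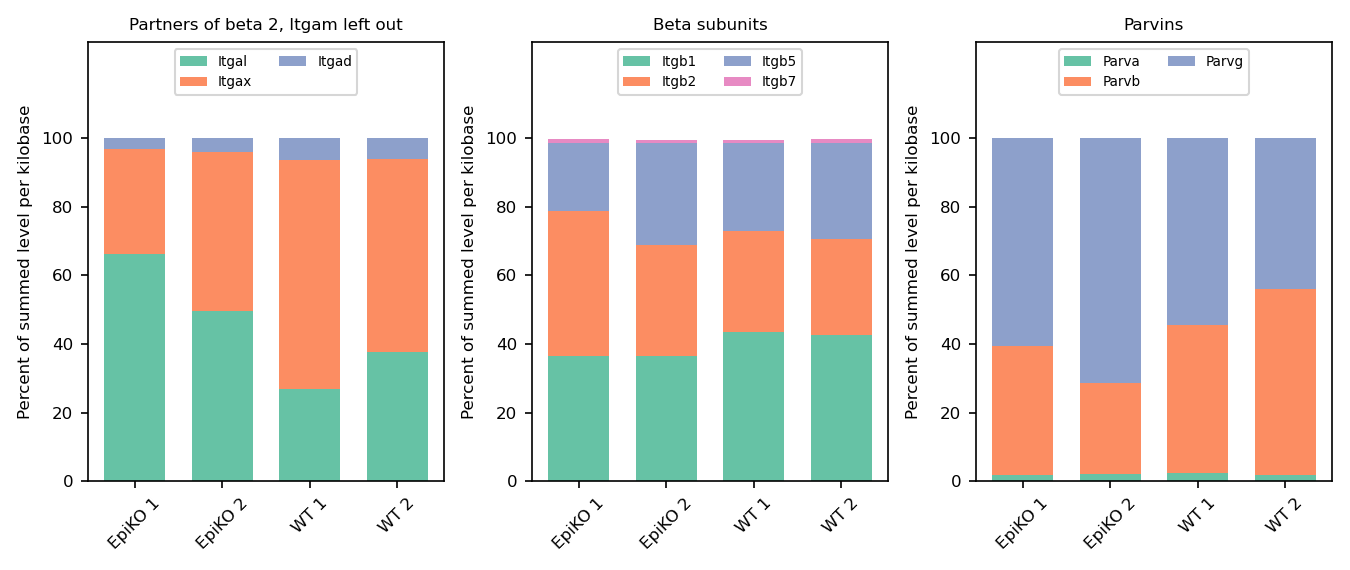
Percent of the summed level per kilobase of merged exons taken by each gene, in each library, EpiKO 1 and 2 left of WT 1 and 2, for the β2 partners without Itgam, the beta subunits and the parvins. Genes that never exceed 0.5% are not drawn. Itgal takes 66.2% and 49.7% of its group in EpiKO and 27.0% and 37.8% in WT, and Parvg 60.7% and 71.4% of the parvins in EpiKO and 54.5% and 44.1% in WT.

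None of the 12 cytoplasmic partners passed the threshold, and in every library Tln1 and Fermt3 stood far above the second talin and kindlin among the members. Tln1, the main talin, had 21946 and 18724 normalised reads in EpiKO and 16402 and 20912 in WT, and the groups overlapped. Fermt3, the kindlin of blood cells, had 7601 and 7845 normalised reads in EpiKO and 6368 and 7094 in WT, a log2 fold change of 0.20 (SE 0.118, limma adjusted p = 0.508). Their relatives of other tissues had higher values in EpiKO. Fermt2, the kindlin of most adherent cells, had 280 and 397 normalised reads in EpiKO and 174 and 99.2 in WT, with a log2 fold change of 1.34 (SE 0.336, limma adjusted p = 0.161). Tln2, the talin of muscle and brain, had 236 and 524 normalised reads in EpiKO and 145 and 172 in WT, with a log2 fold change of 1.15 (SE 0.400, limma adjusted p = 0.273). Without EpiKO replicate 2, which held the high value, the log2 fold change of Tln2 was 0.57.

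Fermt2 and Tln2 passed with DESeq2, at adjusted p of 0.0128 and 0.0459. By level per kilobase, Fermt2 made up 3.94% and 5.34% of both kindlin members in EpiKO and 2.95% and 1.53% in WT, and Tln2 0.570% and 1.47% of the talins in EpiKO and 0.469% and 0.438% in WT.

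Parvg encodes γ-parvin, the parvin of blood cells, which links integrin-linked kinase to actin. It had 3446 and 4413 normalised reads in EpiKO and 2247 and 1782 in WT. The groups were apart, at 3929 ± 683 in EpiKO and 2015 ± 329 in WT (SD, n = 2 each). Its log2 fold change of 0.96 (SE 0.183, 95% interval 0.50 to 1.43) did not pass, with a limma adjusted p of 0.0932, while DESeq2 gave 0.000492. Parvb, the β form, had 3049 and 2351 normalised reads in EpiKO and 2534 and 3132 in WT, and Parva, the α form, 321 and 416 in EpiKO and 333 and 229 in WT. Both overlapped between the groups, so the per-length level of Parvg over that of Parvb was 1.62 and 2.68 in EpiKO and 1.27 and 0.813 in WT. Parvg spans bases 84324026 to 84342978 of chromosome 15 in mm10, plus strand, and shares no exon base with another annotated gene.

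Ilk, the integrin-linked pseudokinase, had 4262 and 3947 normalised reads in EpiKO and 4225 and 4412 in WT, with a log2 fold change of -0.074 (SE 0.110). Of its annotated exon bases 89.7% are shared with genes of the other strand, Rrp8 and Taf10, so its value is uncertain where strand was not used in counting. Vinculin, gene Vcl, had 1637 and 1534 normalised reads in EpiKO and 1528 and 1437 in WT. Paxillin, gene Pxn, had 5519 and 5445 normalised reads in EpiKO and 5267 and 5133 in WT. The 95% intervals of their log2 fold changes, -0.17 to 0.37 for Vcl and -0.19 to 0.34 for Pxn, leave out a difference as large as that of Itgav or Parvg. Of the exon bases of Vcl, 25.5% are shared with Ap3m1 of the other strand, so the limit given for Ilk holds for Vcl too.

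Ptk2b, the gene of PYK2, which is the form of macrophages and osteoclasts, had 2296 and 2229 normalised reads in EpiKO and 2393 and 2297 in WT. The PYK2 gene had a log2 fold change of -0.052 (95% interval -0.31 to 0.21). Ptk2, the gene of focal adhesion kinase, had 436 and 469 normalised reads in EpiKO and 232 and 327 in WT. The log2 fold change of Ptk2 was 0.71 (SE 0.200, limma adjusted p = 0.187). Per length, Ptk2 made up 10.6% and 11.6% of the pair in EpiKO and 5.72% and 8.19% in WT.

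**Figure D5:**
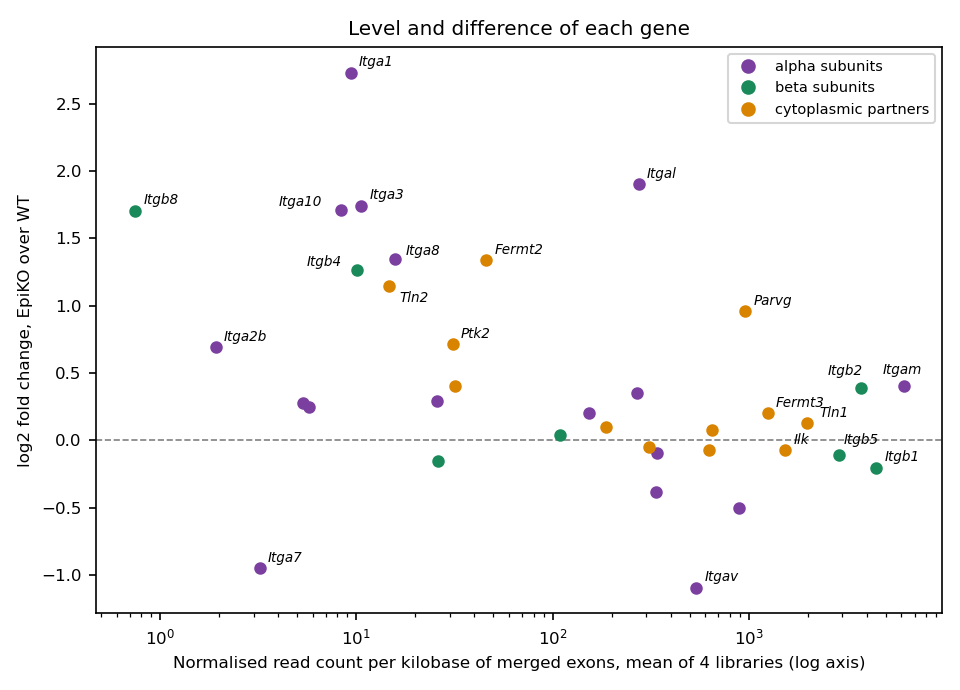
Log2 fold change of EpiKO over WT against the mean normalised read count per kilobase over the 4 libraries, on a log axis, for the 36 tested members coloured by class. The most abundant members, from Itgam to Fermt3, lie between -0.20 and 0.40, while Itga1, Itga3, Itga10 and Itgb4 are high in fold change and low in level per kilobase.

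Levels per kilobase, averaged over the 4 libraries, ran from 6153 normalised reads for Itgam through 4475 for Itgb1, 3742 for Itgb2, 2886 for Itgb5, 1989 for Tln1, 1535 for Ilk, 1250 for Fermt3 and 962 for Parvg. Itga5 at 896 and Itgav at 541 followed as the most abundant matrix-binding alpha chains. Of the 8 most abundant members, only Parvg had groups apart by more than 0.5 on the log2 scale. In the lower range, Itga1 was at 9.36, Itgb4 at 10.1 and Itga10 at 8.39 normalised reads per kilobase. For Itga1 the values rest on 283 and 319 reads in EpiKO and on 42 and 49 in WT.

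Other genes of the adhesion machinery were listed in 6 groups, of which 119 genes were tested. Among them 1 was higher, 1 lower and 117 did not pass, beside the 0.417% and 0.530% of all genes, and their median log2 fold change was -0.0086. Kank1, which links talin to the cell cortex, fell by 3.11 on the log2 scale (SE 0.291, limma adjusted p = 0.0342), with 15.1 and 15.1 normalised reads in EpiKO and 126 and 151 in WT. It was the only call among 16 tested talin and kindlin activators and adaptors. Of the Rap1 pathway genes in that list, Rapgef1 had a log2 fold change of -0.30, Rassf5 one of 0.32 and Rasgrp2 one of 0.75, none of them called.

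Nid1 encodes nidogen, a basement membrane protein that joins laminin to type IV collagen, and was the 1 call among 22 tested integrin ligands. Nid1 rose by 2.51 on the log2 scale (SE 0.286, limma adjusted p = 0.0471), with 1154 and 1666 normalised reads in EpiKO and 304 and 194 in WT. Neither Nid1 nor Kank1 was called with any 1 library left out, and edgeR and limma without trend did not call Nid1. Spp1, osteopontin, had 158860 and 111359 normalised reads in EpiKO and 47900 and 46436 in WT, and Fn1, fibronectin, 388550 and 170027 in EpiKO and 60757 and 105258 in WT. Tnc, tenascin C, had a log2 fold change of 0.95 (SE 0.221). Spp1, Fn1 and Tnc missed the threshold, at adjusted p of 0.0567, 0.199 and 0.141 (limma). DESeq2 called Spp1, Tnc and Nid1 higher in this list, beside 3.73% of all genes, with adjusted p of 3.86e-10 for Spp1 and 0.00469 for Tnc. The ligand list had a median log2 fold change of 0.35, with 15 of 22 members above 0, beside 6189 of 12463 genes in all.

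Among 20 plaque scaffolds and actin linkers, 0 were called and the median log2 fold change was 0.0094. Tns3, a tensin, had 2449 and 2867 normalised reads in EpiKO and 4719 and 6055 in WT. Tgfb1i1, the paxillin relative Hic-5, had 199 and 342 normalised reads in EpiKO and 24.3 and 4.20 in WT, with a log2 fold change of 4.51 (SE 0.811, limma adjusted p = 0.0891). Evl, an actin regulator of the Ena and VASP family, and Tes, testin, had log2 fold changes of 0.83 and 0.95. At an unadjusted p under 0.05 by limma, 5 of this list were higher and 4 lower, beside 1006 and 943 of all 12463 genes. DESeq2, which called 6.85% of all genes, called 6 of it, Tgfb1i1, Tes, Evl and the tensin Tenc1 higher and Tns3 and the paxillin relative Lpxn lower.

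In the adhesion signalling list, 0 of 28 tested genes were called and the median log2 fold change was -0.060. Pak1 had a log2 fold change of -0.45, Bcar1 (p130Cas) one of 0.72, Elmo1 one of -0.43 and Vav3 one of 0.32, all without a call. None of 18 podosome genes was called, with a median of 0.033. Svil, supervillin, had 2535 and 1742 normalised reads in EpiKO and 904 and 983 in WT (limma adjusted p = 0.0817), Cttn, cortactin, a log2 fold change of 0.93, Pstpip1 one of -0.52 and Asap1 one of 0.52. Tetraspanins and lateral partners gave 0 calls among 15, with a median of -0.11. Within them Cav1, caveolin, had 2213 and 1729 normalised reads in EpiKO and 3469 and 4121 in WT (limma adjusted p = 0.0816), Cd82 had a log2 fold change of -0.77, Cd37 one of -0.69 and Emp2 one of 0.91. At an unadjusted p under 0.05 by limma, the signalling list held 2 higher and 3 lower genes, the podosome list 5 and 1 and the tetraspanin list 0 and 3, beside 1006 and 943 of all 12463 genes. DESeq2 called 4 genes of these 3 lists, Svil and Cttn higher and Cav1 and Cd82 lower, beside 3.73% of all genes higher and 3.12% lower.

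Markers of the remaining cell types were low or overlapped between groups. Neutrophil markers summed to 237 and 217 in EpiKO and to 158 and 1328 in WT, B cell markers to 20.5 and 64.3 in EpiKO and to 82.3 and 74.8 in WT, and mast cell and basophil markers to 96.9 and 18.0 in EpiKO and to 258 and 33.6 in WT. Dendritic cell markers summed to 103 and 154 in EpiKO and to 224 and 152 in WT, with Xcr1 and Clec9a at no more than 3 reads in any library, beside the overlapping values of Itgax and Itgae.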

How the data were processed

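RNA was measured in 2 EpiKO and 2 WT libraries of sorted CD11b and CD200R1 positive cells, made by poly-A selection and an Illumina TruSeq RNA kit, per the labels' protocols. Per the submitters' processing notes, the authors' build was mm10 and their tools DESeq2, featureCounts 1.5.0-p3, STAR 2.5.2b and bcl2fastq 2.17. The annotation and the handling of strand and of multi-mapped reads were not given in the sources used here. Per gene, the authors deposited a signal, the count of a gene over the size factor of its library, as read from the values: 100% of values gave whole reads (tolerance 1e-06 reads), so the reads could be recovered. Intervals for low counts cover counting error only, and PCR copies of a molecule are not told apart.

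Genes that reached 10 in 2 or more libraries were tested as log2(value + 1) with limma 3.58.1 (trend, robust) in R 4.3.3, all 4 libraries, no covariate, two-sided, adjusted over 12463 genes. The added 1 shrinks the log2 fold changes of most low genes. That of Itgb8, with 1 library at 0, was nevertheless larger by limma (1.71) than by edgeR (0.995) or DESeq2 (0.902). Alternatives were each library left out, limma without trend, quantile normalization, equal totals, a filter at 50 or none, pseudocounts 0.5 and 5, a threshold of 0.1, and edgeR 4.0.16 and DESeq2 1.42.0 on the recovered reads. The scripts were tested on simulated data. Levels per kilobase divide by merged GENCODE M21 exons (mm10), all isoforms included. Values in every library are given for called members, up to 6 per direction with the smallest p and the 8 highest per kilobase; other lists give called genes and up to 4 with the smallest p, marker lists up to 2 with the highest mean. Some further members and genes were named after their values were seen. Members and lists were chosen with earlier results of these data known. Of 227 list entries, 2 were found under another symbol and 2 were not found. The values of 1 marker gene are not reported here.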

Additional observations from a re-analysis of the deposited data

How the results depend on the processing

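The 36 log2 fold changes were recomputed in 463 member and setting combinations, of which 427 kept direction and side of the threshold. No paired analysis was possible because the labels give the groups no shared replicate numbers. Leaving out 1 library gave 0 to 2 genes higher and 0 to 4 lower over all genes (52 and 66 with all 4), and 0 to 0 members and other adhesion genes in either direction. The lone library of a group is then assumed to vary like the other group. Without its trend, limma called 13 genes higher and 18 lower, 1 member (Itga1) and 0 other adhesion genes higher. DESeq2 called 465 and 389 genes (3.73% and 3.12%), 7 members higher and 2 lower, and 9 other adhesion genes higher and 5 lower. At a threshold of 0.1 the counts were 226 and 202 genes, 3 members higher (with Parvg) and 1 lower (Itgav), and 5 other adhesion genes higher and 3 lower. With no filter 1 member was lower (Itgav) and 2 other adhesion genes higher, as many as with quantile normalization, and edgeR called 0 of them higher. The cause was not tested. Without division by length the share of Itgal among β2 partners was 7.25% in EpiKO and 2.68% in WT, since its merged exons are longer than those of its partners.

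Among members, direction turned only on leaving out 1 library, in 13 members without a call. Their log2 fold changes then ranged from -0.24 (without EpiKO replicate 2) to 0.80 for Itga2, -0.83 to 0.056 (without WT replicate 2) for Itga6, -0.025 (without WT replicate 1) to 0.44 for Itga4, and -0.60 to 0.41 for Itga9, which turned without EpiKO replicate 1 or WT replicate 1. Itgax ranged from -0.18 to 0.89, Itgad from -0.19 to 0.78 and Itgae from -0.66 to 1.16, all turned without EpiKO replicate 2 or WT replicate 2. Itgb3 ranged from -0.35 to 0.034 and Itgb5 from -0.32 to 0.10, turned without EpiKO replicate 1, and Itgb7 from -0.29 to 0.38, turned without EpiKO replicate 1 or WT replicate 1. Itgb8 ranged from -0.12 (without WT replicate 2) to 3.53, Tln1 from -0.045 (without WT replicate 1) to 0.31 and Parvb from -0.26 to 0.11, turned without EpiKO replicate 2 or WT replicate 2. With 2 libraries a group, the spread is known only roughly, and at low counts, as for Itgb8, counting error adds to it.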
